A study of Homo sapiens with 2 samples.

Results

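The genes described here build chondroitin sulfate and heparan sulfate, or attach xylose-containing sugars to Notch. The 46 members were taken by symbol from a count table of 54261 features, and all 46 symbols were found in it. They fall into 9 role groups, which are the linker, the chondroitin chain, its modification, the heparan chain, its modification, extracellular sulfatases, core proteins, precursors and the Notch xylosyl genes. The study compared RKO cells treated with siRNA against HNRNPM with control RKO cells, titled NC. NC is read here as a negative control siRNA, and the term control siRNA rests on that reading. RKO is a human colorectal carcinoma line, and both groups are this 1 line, labelled as an HNRNPM knockdown and as wild type. Each group is 1 RNA-seq library, so no difference below has a replicate check and no p-value is given. The siRNAs are not described further in the labels, and neither is the time between transfection and harvest. Below, values of these libraries are marked as being with siHNRNPM and with control siRNA.

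Glycosaminoglycans are long sugar chains carried by proteoglycan core proteins at the cell surface and in the matrix. A short linker is built on a serine of the core protein in the Golgi, and the next sugar added decides whether the chain becomes chondroitin or heparan sulfate. The chain is then elongated, epimerised and sulfated, and its sulfation pattern sets which growth factors and receptors it binds. The 3 Notch xylosyl genes belong to a separate route that builds a xylose-xylose-glucose sugar on the extracellular repeats of Notch receptors.

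Gene reads totalled 13056118 with siHNRNPM and 19931360 with control siRNA. Levels are given as CPM, the read count relative to the TMM-scaled library size in units of 1e+06 reads. Every log2 ratio is siHNRNPM over control, with a 95% interval for counting error alone, and a gene is called higher or lower where that interval lies wholly above or below a ratio of 1. A gene counted as measured when it had at least 1 CPM in either library, which held for 12925 genes. HNRNPM itself had 79.6 CPM with siHNRNPM and 144 CPM with control siRNA, or 55.2% of the control level (51.3% to 59.2%). Of 5 epithelial markers, KRT8, KRT18 and EPCAM were measured in both libraries, while KRT19 had 1 read in each and CDH1 had 1 read with siHNRNPM and 10 reads with control siRNA. The intestinal factor gene CDX2 had 8.10 CPM with siHNRNPM and 10.7 CPM with control siRNA, and the intestinal genes CDX1, VIL1 and CDH17 were at 0 to 2 reads. The summed leukocyte markers did not exceed 0.151 CPM and the summed endothelial markers 0.229 CPM in either library. Summed fibroblast markers were at 3.36 CPM with siHNRNPM and 1.41 CPM with control siRNA, and DCN among them had no read. Summed mesenchymal markers were at 335 CPM with siHNRNPM and 435 CPM with control siRNA. Of these 3 markers ZEB1 had 309 CPM with siHNRNPM and 407 CPM with control siRNA, VIM had 26.1 CPM with siHNRNPM and 28.1 CPM with control siRNA, and CDH2 had no read. Summed epithelial markers were at 79.2 CPM with siHNRNPM and 68.9 CPM with control siRNA. The part of these marker differences in the results below was not tested.

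Of the 46 members, 35 were measured. Among these 9 were higher with siHNRNPM, 11 were lower, and 15 had an interval that held a ratio of 1. In bulk RNA such a difference can come from less RNA per cell or from fewer cells that make it, and these cannot be told apart. The 9 higher members are 25.7% of those measured, against a background of 22.0% of all measured genes, and the 11 lower members are 31.4%, against 26.1%. Members had more reads than the average gene, with a median of 1694 over both libraries against 1058 for all measured genes. Among the 11157 genes with 100 or more reads, which include all 35 measured members, 22.7% were higher and 28.7% lower. Measured members had a median log2 ratio of -0.01, and all measured genes had -0.01 as well. As a list the members sat near the background, and the differences below are given gene by gene.

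At least 2-fold differences were found in 2 members, against backgrounds of 2.45% of measured genes higher by that rule and 1.49% lower. GPC6 was higher and XXYLT1 lower. When the measured genes were divided into bands of mean CPM, 7 of the 35 members lay outside the central 95% of their own band. By definition 95% of the genes of a band lie inside it. The members were chosen with earlier results of these data known, so no excess is read from this count. XXYLT1, GXYLT1 and CSGALNACT2 lay below it, while GPC6, CHST14, HS2ST1 and SDC4 lay above it. In 20 of the 35 members the log2 ratio was within 0.25 of 0. The lower and upper quartiles of all measured genes, at -0.21 and 0.18, lay inside that range as well.

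**Figure D1:**
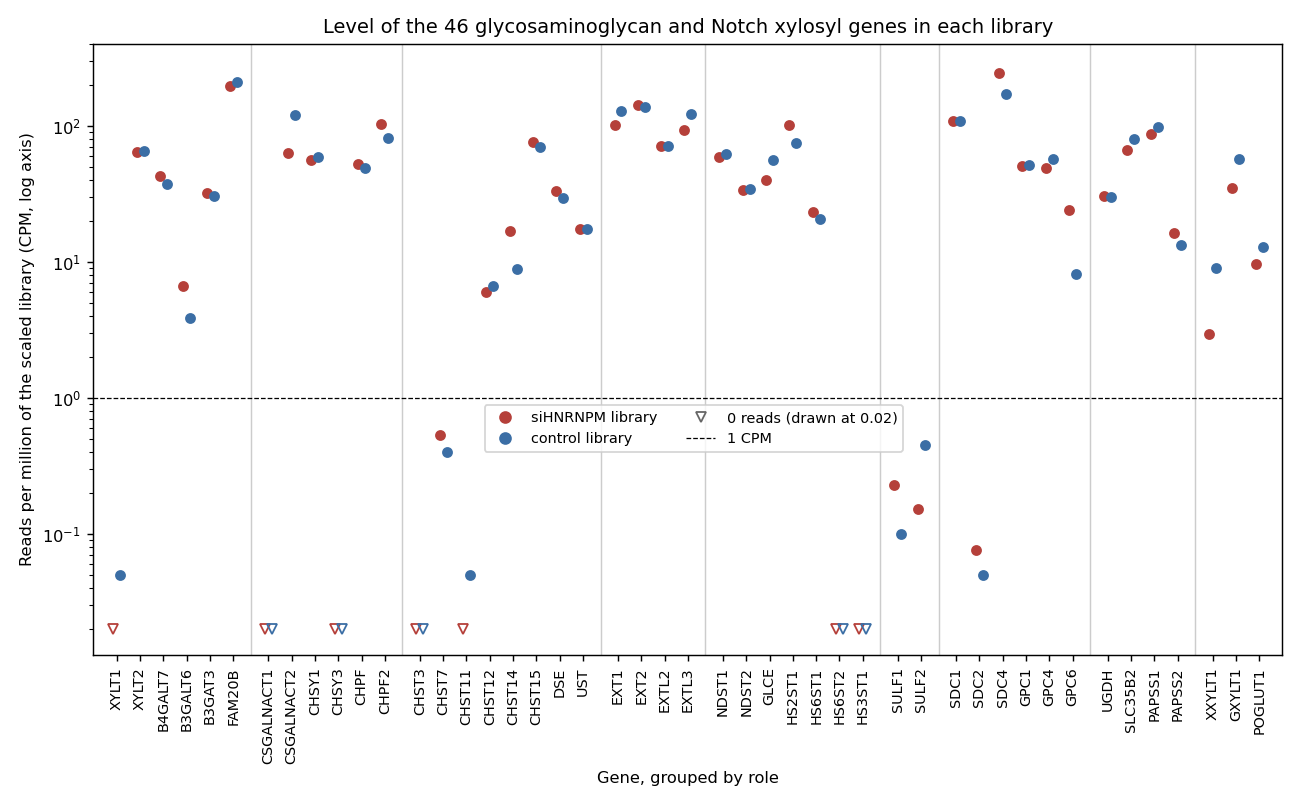
Level of each of the 46 members with siHNRNPM (red) and with control siRNA (blue), in CPM on a log axis, with vertical lines between role groups and open triangles for 0 reads. The members fall into 35 above the dashed 1 CPM line in at least 1 library and 11 below it in both, and XXYLT1, GPC6 and CSGALNACT2 show the widest gaps between libraries among the measured members.

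**Figure D2:**
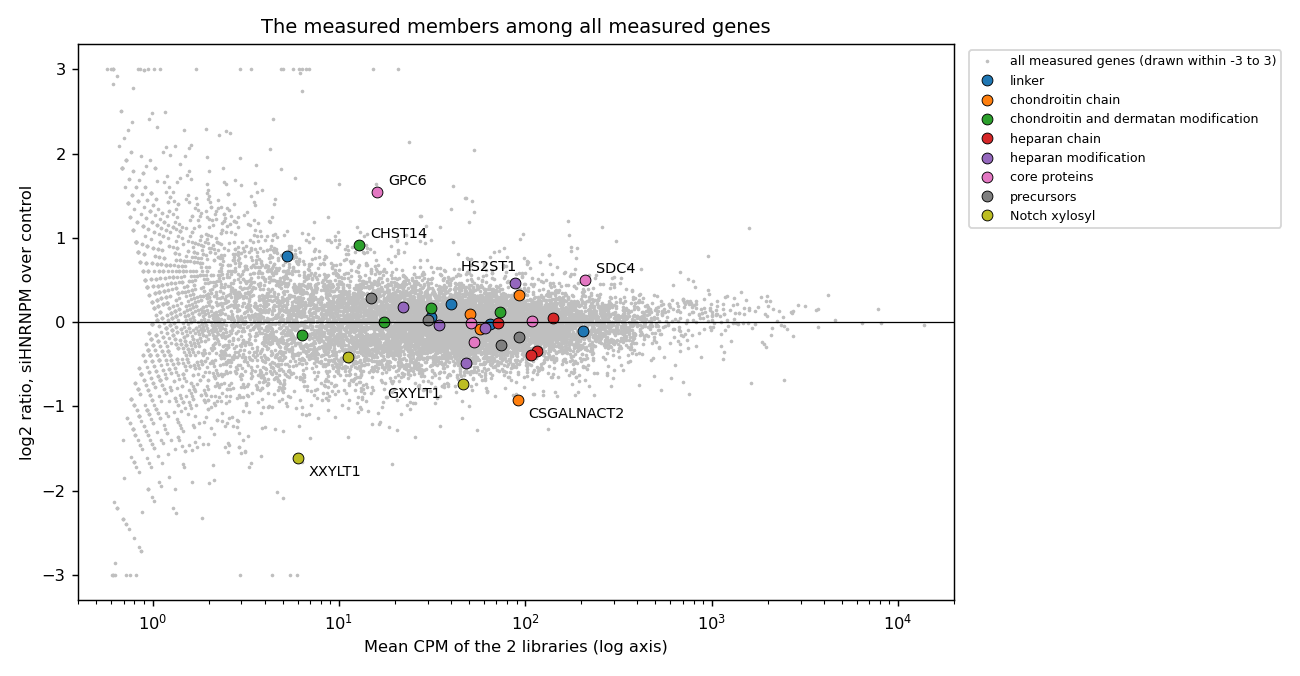
Log2 ratio, siHNRNPM over control, against mean CPM (log axis) for all 12925 measured genes (grey) and the 35 measured members (coloured by role). Among the members GPC6 had the highest ratio at 1.54, and XXYLT1 at -1.61 and CSGALNACT2 at -0.93 had the lowest. Other measured genes lie further out in both directions.

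Most lower members shared a sequence feature. Of the 11 lower members, 8 held the 7-base sequence GTGAGAA in their 3′ UTR (72.7%), against 25.9% of all lower genes searched. It had been picked out earlier from these same libraries as commoner in the 3′ UTRs of lower genes, so its occurrence in lower members is not independent evidence. Exact matches were counted on the transcript strand in the longest annotated 3′ UTR of each gene, and 14.5% of 19401 protein-coding genes held at least 1. Of the measured members, 12 of 35 held it (34.3%), against 16.5% of 10796 measured genes searched. The windows shown are those of the most strongly lower holders, CSGALNACT2, GXYLT1, GLCE and POGLUT1, and of SDC1, a holder whose level was alike in both libraries. Each window is 30 bases of GENCODE 29 transcript sequence on GRCh38, written 5′ to 3′ on the strand of the gene, with the match in capitals.
CSGALNACT2, chr10:43183679-43183708, plus strand: ttcaacttgatGTGAGAAgaaaaaacaaat
CSGALNACT2, chr10:43183722-43183751, plus strand: atctctgttttGTGAGAAtactgcactatg
GXYLT1, chr12:42087358-42087387, minus strand: actttaaaagtGTGAGAAaaaagtttgttt
GXYLT1, chr12:42087093-42087122, minus strand: tgtgagagagaGTGAGAAatgtagtgtttc
GXYLT1, chr12:42086927-42086956, minus strand: ctgatggtaaaGTGAGAAccttaagagtat
GXYLT1, chr12:42084284-42084313, minus strand: aaagagaggaaGTGAGAAaaggggtgagga
GLCE, chr15:69269529-69269558, plus strand: agtcactctatGTGAGAAagataatggtaa
POGLUT1, chr3:119492483-119492512, plus strand: gatatcctacgGTGAGAAgcttaccataag
SDC1, chr2:20201831-20201860, minus strand: gagaagcccgtGTGAGAAgtgaatgctggg

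The 12 measured holders comprised 8 lower members, 0 higher members and 4 not separated from a ratio of 1, and their median log2 ratio was -0.31. The 23 measured members without a match comprised 3 lower, 9 higher and 11 not separated, and their median was 0.10. Over all measured genes, 45.3% of the 1776 holders were lower and 12.8% higher, against 25.6% and 23.4% of the 9020 genes without a match. The median of the holders was -0.13 and that of the genes without a match -0.01. Members with 1 match had a median of -0.26 (8 genes) and those with 2 or more a median of -0.54 (4 genes). Over all measured genes these medians were -0.12 and -0.23. The 3′ UTRs of member holders were longer, with a median of 2796 bases against 1776 bases for members without a match, and the part of this length in the difference was not tested. XXYLT1, the member with the lowest ratio, held no match.

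**Figure D3:**
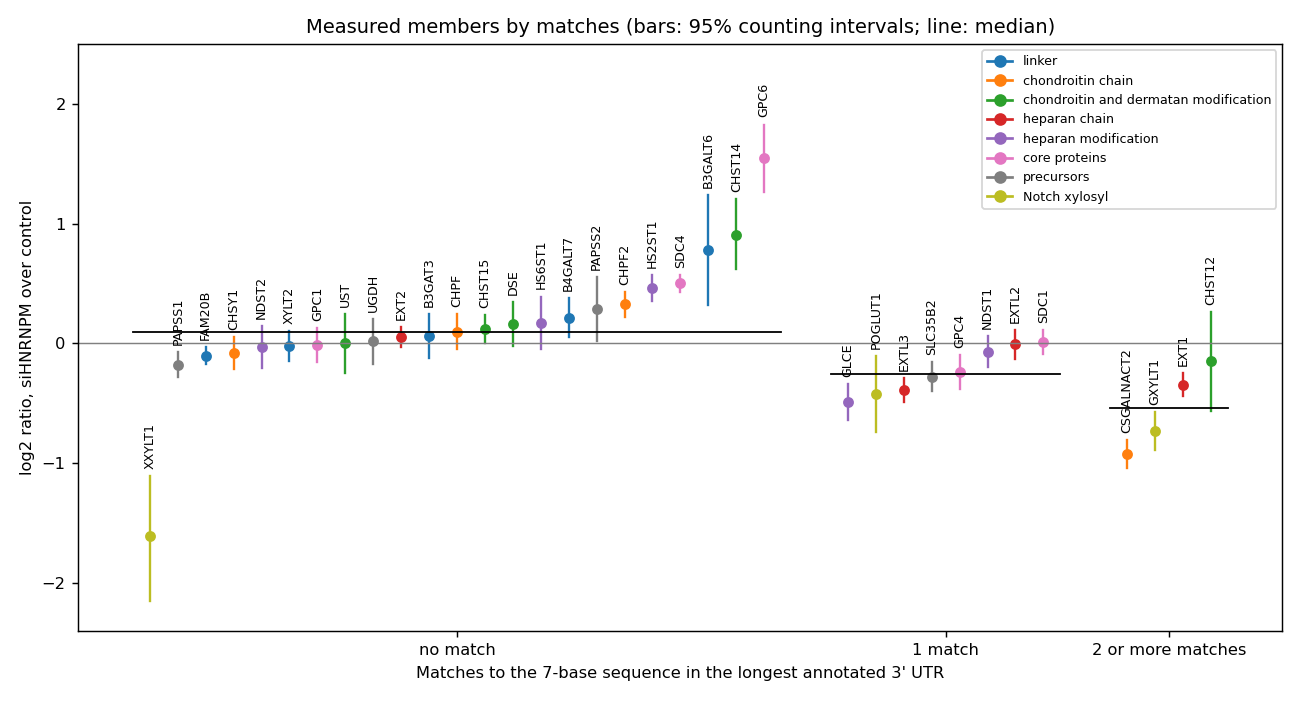
Log2 ratio, siHNRNPM over control, for the 35 measured members, ordered within groups with no match, 1 match and 2 or more matches to the 7-base sequence in the longest 3′ UTR. Points are genes coloured by role, bars are 95% counting intervals and black lines are group medians, at 0.10, -0.26 and -0.54.

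In sum the linker genes were close to level, with B4GALT7 and B3GALT6 higher and FAM20B lower. XYLT2 encodes the xylosyltransferase that starts the linker, and it had 64.3 CPM with siHNRNPM and 65.3 CPM with control siRNA, with a log2 ratio of -0.02 (-0.15 to 0.11). Its paralogue XYLT1 had 0 reads with siHNRNPM and 1 read with control siRNA, so nearly all xylosyltransferase reads of the linker step belonged to XYLT2. B4GALT7, which adds the first galactose, had 43.1 CPM with siHNRNPM and 37.1 CPM with control siRNA (0.22, 0.05 to 0.38). B3GALT6, which adds the next galactose, had 87 reads (6.65 CPM) with siHNRNPM and 77 reads (3.87 CPM) with control siRNA, and the highest linker ratio at 0.78 (0.32 to 1.24). The glucuronyltransferase gene B3GAT3 had 31.9 CPM with siHNRNPM and 30.6 CPM with control siRNA, and its interval held a ratio of 1. FAM20B encodes the kinase that phosphorylates the linker xylose and had the highest linker level per kilobase of merged exon. It stood at 197 CPM with siHNRNPM and 212 CPM with control siRNA (-0.10, -0.17 to -0.03), a call that ended with the control library thinned to equal depth. Summed over the 6 genes, the linker level was 343 CPM with siHNRNPM and 348 CPM with control siRNA, a log2 ratio of -0.02 (-0.08 to 0.03).

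Chondroitin chain genes differed in opposite directions. CSGALNACT2 encodes the enzyme that adds the first N-acetylgalactosamine and so commits a linker to chondroitin. The gene occupies bases 43138486 to 43185308 of chromosome 10 (GRCh38, plus strand). It had 823 reads (62.9 CPM) with siHNRNPM and 2374 reads (119 CPM) with control siRNA, which is 1.90-fold lower with a log2 ratio of -0.93 (-1.04 to -0.81). That ratio ranked 281st from the lowest of 12925 measured genes. CSGALNACT1, the other gene for this step, had no read in either library. The 3 measured genes of the polymerase complexes that lengthen the chain were higher or not separated. CHPF2 was higher at 103 CPM with siHNRNPM and 82.2 CPM with control siRNA (0.33, 0.22 to 0.43), while CHPF had 52.6 CPM with siHNRNPM and 49.1 CPM with control siRNA (0.10, -0.04 to 0.24) and CHSY1 had 55.9 CPM with siHNRNPM and 59.1 CPM with control siRNA (-0.08, -0.22 to 0.05). CHSY3 had no read. Per kilobase of merged exon, CSGALNACT2 stood at 16.9 CPM with siHNRNPM, between CHPF2 at 24.5 and CHPF at 15.7. With control siRNA it stood first among the chain genes at 32.0, ahead of CHPF2 at 19.5.

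Among modification genes of chondroitin and dermatan, CHST14 and CHST15 were higher. CHST14 encodes the sulfotransferase that acts on dermatan, the epimerised form of chondroitin, and occupies bases 40470998 to 40474571 of chromosome 15 (plus strand). It had 220 reads (16.8 CPM) with siHNRNPM and 178 reads (8.95 CPM) with control siRNA, which is 1.88-fold higher (0.91, 0.62 to 1.20). DSE, the epimerase gene that makes the CHST14 substrate, had 33.2 CPM with siHNRNPM and 29.6 CPM with control siRNA (0.16, -0.02 to 0.34). UST, which sulfates the uronic acid, had 17.4 CPM in both libraries (0.00, -0.25 to 0.25). CHST15, which adds a further sulfate to already sulfated galactosamine, had 76.6 CPM with siHNRNPM and 70.6 CPM with control siRNA (0.12, upper bound 0.24), and its lower bound of 0.00078 fell below 0 under DESeq2 scaling, which ended its call. The interval of DSE lay above 0 under upper-quartile scaling. CHST12, the measured chondroitin sulfotransferase gene of the type shared with CHST11, had 6.04 CPM with siHNRNPM and 6.69 CPM with control siRNA (-0.15, -0.57 to 0.26) and held 2 matches to GTGAGAA. Sulfotransferase genes CHST3, CHST7 and CHST11 were not measured. CHST3 had no read in either library, CHST7 had 7 reads with siHNRNPM and 8 reads with control siRNA, and CHST11 had 0 reads with siHNRNPM and 1 read with control siRNA. The summed level of the 8 genes was 151 CPM with siHNRNPM and 134 CPM with control siRNA (0.17, 0.09 to 0.26), so the group total was higher although only CHST14 and CHST15 were called so one by one.

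Among heparan chain genes, EXT1 and EXTL3 were lower and EXT2 and EXTL2 were not separated. EXT1 and EXT2 encode the partner subunits of the heparan polymerase. EXT1 had 102 CPM with siHNRNPM and 129 CPM with control siRNA (-0.35, -0.44 to -0.25), and EXT2 had 143 CPM with siHNRNPM and 138 CPM with control siRNA (0.05, -0.03 to 0.14). EXTL3, whose product adds the first N-acetylglucosamine and so commits a linker to heparan sulfate, had 92.8 CPM with siHNRNPM and 122 CPM with control siRNA (-0.39, -0.49 to -0.29). EXTL2, a related transferase gene, had 71.3 CPM with siHNRNPM and 71.6 CPM with control siRNA (-0.01, -0.13 to 0.11). Holders of GTGAGAA here were EXT1 with 2 matches and EXTL2 and EXTL3 with 1 each, whereas EXT2 had none. CSGALNACT2 and EXTL3, the committing genes of the chondroitin and heparan branches, were both lower with siHNRNPM. Branch totals gave a log2 ratio of -0.06 (-0.11 to -0.01) for the summed reads of 14 chondroitin and dermatan enzymes and -0.09 (-0.12 to -0.05) for those of 11 heparan enzymes. The chondroitin and dermatan total includes CSGALNACT2, at 62.9 CPM with siHNRNPM and 119 CPM with control siRNA. By median, the 9 measured chondroitin and dermatan enzymes stood at 0.10 and the 9 measured heparan enzymes at -0.03.

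Heparan modification genes included a pair with opposite differences. HS2ST1, which sulfates the uronic acids of the chain, had 1338 reads (102 CPM) with siHNRNPM and 1477 reads (74.3 CPM) with control siRNA (0.46, 0.35 to 0.57). GLCE, whose epimerase prepares those uronic acids, had 522 reads (39.9 CPM) with siHNRNPM and 1114 reads (56.0 CPM) with control siRNA (-0.49, -0.64 to -0.34). An annotation on the same strand, AC093155.3, shares 720 exon bases with HS2ST1, or 9.69% of its merged exons, so reads there cannot be assigned with certainty. The genes of the N-deacetylase and N-sulfotransferase that act first on the chain were not separated. NDST1 had 59.1 CPM with siHNRNPM and 61.9 CPM with control siRNA (-0.07, -0.20 to 0.06), and NDST2 had 33.9 CPM with siHNRNPM and 34.7 CPM with control siRNA (-0.03, -0.21 to 0.14). A readthrough annotation, AC022400.6, covers 82.9% of the exon bases of NDST2 on the same strand, so reads of NDST2 cannot be assigned with certainty. HS6ST1 had 23.3 CPM with siHNRNPM and 20.7 CPM with control siRNA (0.17, -0.05 to 0.39), and HS6ST2 and HS3ST1 had no read. The genes of the extracellular sulfatases that trim sulfates from finished heparan chains were not measured, SULF1 having 3 reads with siHNRNPM and 2 reads with control siRNA, and SULF2 having 2 reads with siHNRNPM and 9 reads with control siRNA.

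Core protein genes held the highest member ratio. GPC6 encodes glypican 6, a heparan sulfate proteoglycan anchored by a lipid to the outer face of the plasma membrane, and occupies bases 93226842 to 94407401 of chromosome 13 (plus strand). It had 313 reads (23.9 CPM) with siHNRNPM and 163 reads (8.20 CPM) with control siRNA, which is 2.92-fold higher with a log2 ratio of 1.54 (1.27 to 1.83). That ratio ranked 116th from the highest of 12925. Of the other glypican genes, GPC1 had 51.0 CPM with siHNRNPM and 51.6 CPM with control siRNA (-0.02, -0.16 to 0.13) and GPC4 had 48.7 CPM with siHNRNPM and 57.4 CPM with control siRNA (-0.24, -0.38 to -0.10). GPC2, a measured glypican gene outside the members, had 7.11 CPM with siHNRNPM and 8.20 CPM with control siRNA (-0.21, -0.59 to 0.17). In CPM per kilobase of merged exon with siHNRNPM, GPC6 at 3.70 stood above GPC2 at 1.86 and below GPC1 at 7.83 and GPC4 at 9.81. With control siRNA it stood below all of them, at 1.27, with GPC2 at 2.14, GPC1 at 7.92 and GPC4 at 11.6. An antisense annotation, AL354811.1, shares 476 exon bases with GPC6, or 7.36% of its merged exons, and the use of strand was not given.

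Syndecans are transmembrane core proteins. SDC4 had 3197 reads (244 CPM) with siHNRNPM and 3434 reads (173 CPM) with control siRNA, which is 1.41-fold higher (0.50, 0.43 to 0.57). SDC1 had 109 CPM with siHNRNPM and 108 CPM with control siRNA (0.01, -0.09 to 0.11), and SDC2 had 1 read in each library. Per kilobase of merged exon SDC4 led all members in both libraries, at 93.5 CPM with siHNRNPM and 66.1 CPM with control siRNA. Summed over the 6 core protein genes, the level was 477 CPM with siHNRNPM and 398 CPM with control siRNA (0.26, 0.21 to 0.31), and SDC4 held most of the difference in CPM.

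Precursor genes differed by small amounts. UGDH, which makes UDP-glucuronic acid for both chains, had 30.4 CPM with siHNRNPM and 30.03 CPM with control siRNA (0.02, -0.17 to 0.20). The sulfate donor of every sulfotransferase is made by PAPSS1 and PAPSS2 and carried into the Golgi by SLC35B2. PAPSS1 had 87.2 CPM with siHNRNPM and 98.6 CPM with control siRNA (-0.18, -0.28 to -0.07), whereas PAPSS2 had 16.3 CPM with siHNRNPM and 13.3 CPM with control siRNA (0.29, 0.02 to 0.55), a call that also ended with the thinned control library. SLC35B2 was lower at 66.6 CPM with siHNRNPM and 80.7 CPM with control siRNA (-0.28, -0.40 to -0.16) and held 1 match to GTGAGAA.

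All 3 Notch xylosyl members were lower with siHNRNPM, while 26.1% of all measured genes were lower. The members were chosen with earlier results of these data known, so this share and the group median below are descriptions only. POGLUT1 adds glucose to the repeats of Notch, GXYLT1 adds the first xylose to that glucose, and XXYLT1 adds the second xylose. XXYLT1 occupies bases 195068279 to 195271167 of chromosome 3 (minus strand). It had 39 reads (2.98 CPM) with siHNRNPM and 181 reads (9.10 CPM) with control siRNA, which is 3.05-fold lower with a log2 ratio of -1.61 (-2.15 to -1.11). That ratio ranked 62nd from the lowest. GXYLT1 had 454 reads (34.7 CPM) with siHNRNPM and 1145 reads (57.6 CPM) with control siRNA (-0.73, -0.89 to -0.57), and carried 4 matches to GTGAGAA, the highest number among the members. POGLUT1 had 126 reads (9.63 CPM) with siHNRNPM and 256 reads (12.9 CPM) with control siRNA (-0.42, -0.74 to -0.11). The median ratio of the 3 genes was -0.73, against 0.01 for the other 32 measured members. Their summed level was 47.3 CPM with siHNRNPM and 79.6 CPM with control siRNA (-0.75, -0.89 to -0.62). GXYLT2, a gene of the Notch list outside the members, had 72 reads with siHNRNPM and 115 reads with control siRNA (-0.07, -0.52 to 0.37). The interval of GXYLT2 held a ratio of 1.

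**Figure D4:**
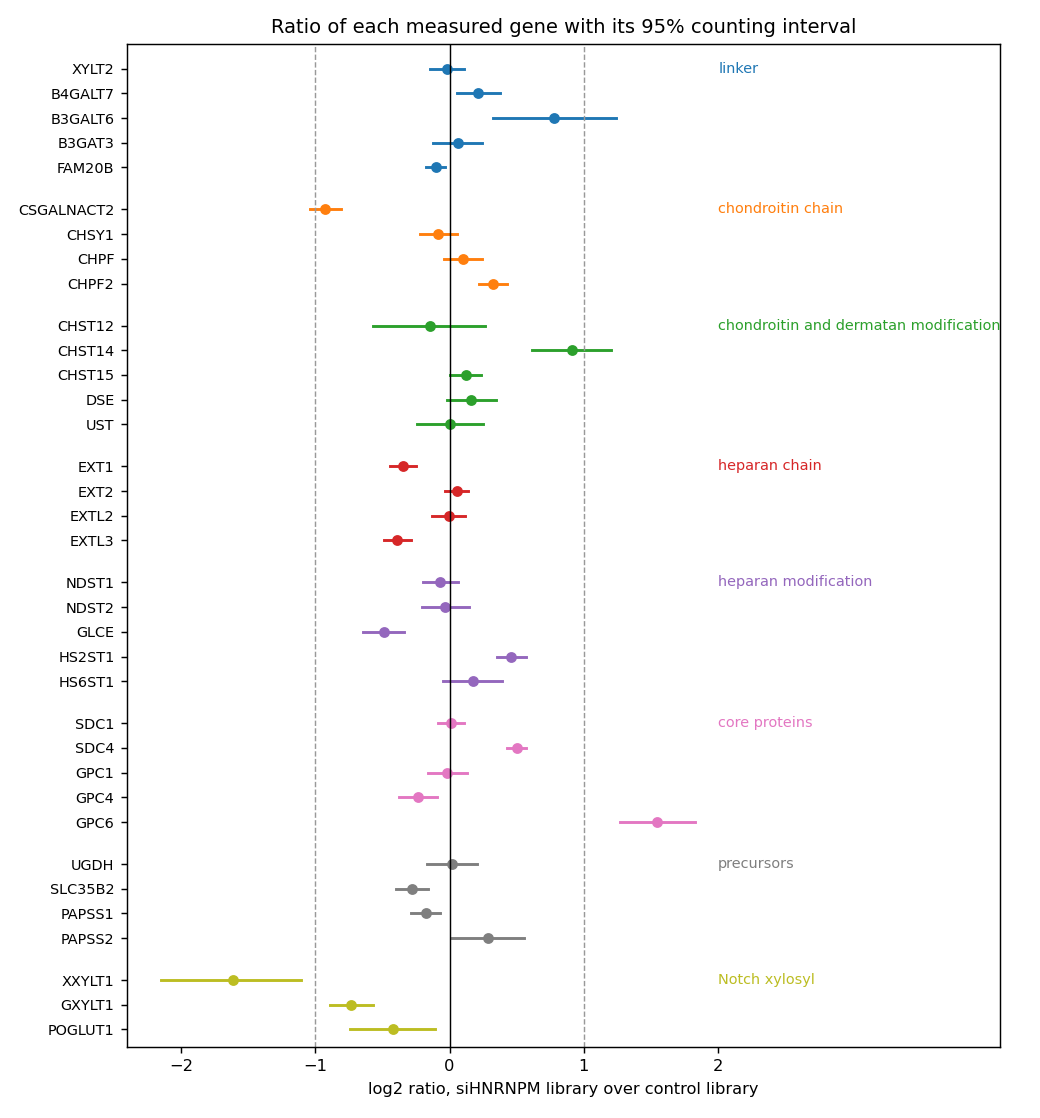
Log2 ratio, siHNRNPM over control, for the 35 measured members in order of role, with 95% counting intervals as bars and dashed lines at 2-fold. The intervals of all 3 Notch xylosyl genes lie below 0, and GPC6 at 1.54 is the only point beyond the upper dashed line.

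Genes of one role were also compared with each other. The difference of log2 ratios between genes of the same libraries does not depend on the scaling, and its exact conditional interval covers counting error only. Members were compared in 20 pairs. The pairs were chosen with these ratios known, so the differences are descriptions and how many of them exclude 0 was largely set by that choice. GPC6 exceeded GPC4 by 1.78 (1.47 to 2.10) and GPC1 by 1.56 (1.25 to 1.88) on the log2 scale. HS2ST1 exceeded GLCE by 0.95 (0.76 to 1.14), and CHST14 exceeded DSE by 0.75 (0.40 to 1.09). CSGALNACT2 minus CHSY1 was -0.84 (-1.02 to -0.66), EXT1 minus EXT2 was -0.40 (-0.53 to -0.27), and EXTL3 minus EXTL2 was -0.38 (-0.54 to -0.23). SDC4 exceeded SDC1 by 0.49 (0.37 to 0.61). The intervals of 3 pairs held 0, namely NDST1 and NDST2 (-0.04, -0.26 to 0.18), XYLT2 and FAM20B (0.08, -0.06 to 0.23), and GXYLT1 and POGLUT1 (-0.31, -0.67 to 0.05).

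**Figure D5:**
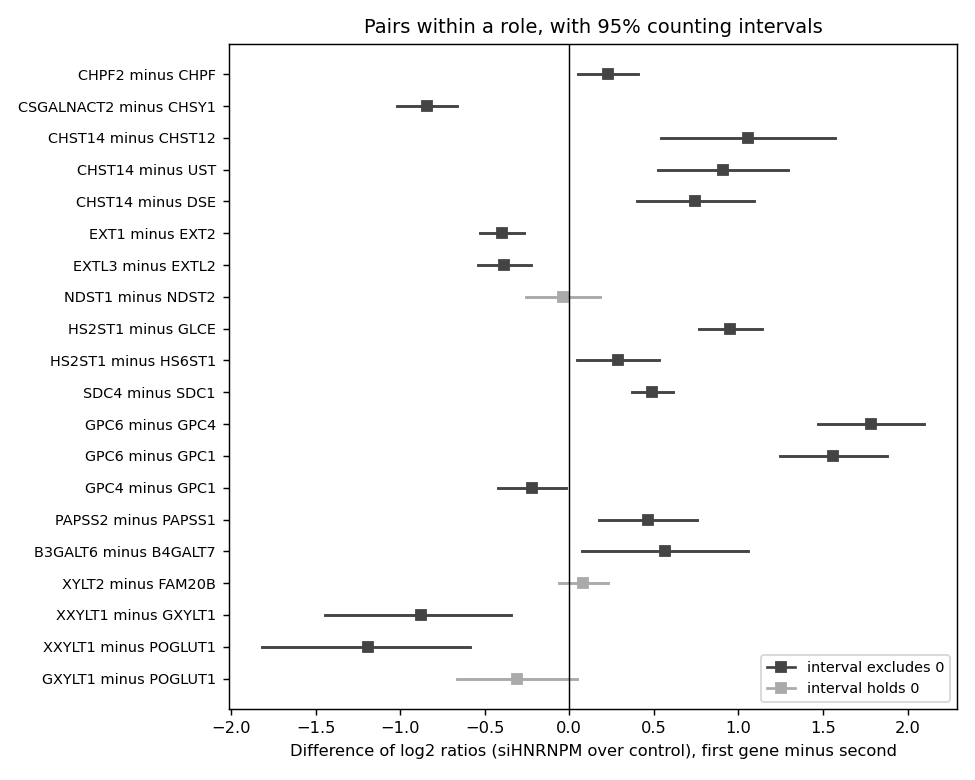
Difference of log2 ratios (siHNRNPM over control), first gene minus second, for 20 pairs of members of the same role, with 95% counting intervals. The pairs were chosen with the ratios known. Dark squares mark intervals that exclude 0 and grey squares those that hold it, and the differences run from 1.78 for GPC6 minus GPC4 to -1.19 for XXYLT1 minus POGLUT1.

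Neighbouring genes of the pathway outside the members were taken from 7 further lists, with 66 measured genes, of which 11 were higher (16.7%, against 22.0% of all measured genes) and 23 lower (34.8%, against 26.1%). Their median was -0.07, against -0.01 for all measured genes. Of 10 measured further core proteins, 2 were higher (20%) and 4 lower (40%), set against the same backgrounds of 22.0% and 26.1%. TGFBR3, which encodes betaglycan, a part-time proteoglycan and TGF-beta co-receptor, had 157 reads with siHNRNPM and 578 with control siRNA and was 2.42-fold lower (-1.28, -1.54 to -1.02), with 2 matches to GTGAGAA. The perlecan gene HSPG2 was higher at 106 CPM with siHNRNPM and 80.1 CPM with control siRNA (0.41, 0.30 to 0.51), as was the brevican gene BCAN at 23.7 CPM with siHNRNPM and 14.4 CPM with control siRNA (0.71, 0.48 to 0.95). Of 2 further measured enzymes, PXYLP1, which removes the phosphate from the linker xylose, was lower at 37.1 CPM with siHNRNPM and 46.7 CPM with control siRNA (-0.33, -0.49 to -0.17).

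Of 14 measured sugar and sulfate supply genes, 8 were lower (57.1%, against 26.1% of all measured genes) and 1 was higher (7.14%, against 22.0%), and their median was -0.10. The list was chosen with these results known, and nothing particular to it is read from these shares. GFPT2, an enzyme gene at the entry of the hexosamine pathway, had 131 CPM with siHNRNPM and 238 CPM with control siRNA (-0.86, -0.94 to -0.78). The nucleotide sugar transporter gene SLC35D1 had 30.1 CPM with siHNRNPM and 46.5 CPM with control siRNA (-0.63, -0.80 to -0.45), and SLC35B3, a second sulfate donor transporter gene, had 14.4 CPM with siHNRNPM and 19.6 CPM with control siRNA (-0.45, -0.71 to -0.19). Of 18 measured breakdown genes, 6 were lower (33.3%, against 26.1%) and 2 higher (11.1%, against 22.0%), with a median of -0.05. The heparanase gene HPSE had 21.9 CPM with siHNRNPM and 29.9 CPM with control siRNA (-0.45, -0.66 to -0.25), GALNS had 15.5 CPM with siHNRNPM and 20.6 CPM with control siRNA (-0.41, -0.66 to -0.16), and HYAL3 was higher, from 38 reads with siHNRNPM and 20 with control siRNA (1.53, 0.71 to 2.39).

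Hyaluronan is made at the plasma membrane without a core protein. Of 2 measured hyaluronan synthase genes, 1 was higher (50%, against 22.0% of all measured genes) and 0 were lower (against 26.1%). HAS2 was the higher one, with 472 reads (36.1 CPM) with siHNRNPM and 368 reads (18.5 CPM) with control siRNA (0.96, 0.76 to 1.16). HAS3 had 87 reads with siHNRNPM and 170 reads with control siRNA (-0.36, -0.75 to 0.02), and HAS1 had no read. In the Notch list, 2 of 10 measured genes were higher (20%, against 22.0%) and 1 was lower (10%, against 26.1%), with a median of 0.05. The receptor genes NOTCH1, with 68.6 CPM with siHNRNPM and 69.2 CPM with control siRNA, and NOTCH2, with 215 CPM with siHNRNPM and 210 CPM with control siRNA, had intervals that held a ratio of 1. EOGT, which adds N-acetylglucosamine to the same kind of repeat, was lower at 48.5 CPM with siHNRNPM and 73.6 CPM with control siRNA (-0.60, -0.74 to -0.47). POFUT1, which adds fucose, was higher at 84.3 CPM with siHNRNPM and 68.4 CPM with control siRNA (0.30, 0.18 to 0.42), and KDELC2 was higher at 57.8 CPM with siHNRNPM and 50.8 CPM with control siRNA (0.19, 0.05 to 0.32). For KDELC1, at 31.8 CPM with siHNRNPM and 34.5 CPM with control siRNA, the interval held a ratio of 1 (-0.12, -0.30 to 0.06).

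Among 10 measured heparan-binding ligands and receptors, 3 were higher (30%, against 22.0%) and 3 lower (30%, against 26.1%). Their median log2 ratio was -0.04. HGF, which encodes hepatocyte growth factor, was higher at 883 CPM with siHNRNPM and 619 CPM with control siRNA (0.51, 0.48 to 0.55). FGFR3 had 22.2 CPM with siHNRNPM and 15.9 CPM with control siRNA (0.48, 0.25 to 0.71), and HBEGF had 61.2 CPM with siHNRNPM and 71.5 CPM with control siRNA (-0.22, -0.35 to -0.10). Over the 7 lists, 11 measured genes held GTGAGAA, of which 8 were lower (72.7%) and 0 higher, with a median of -0.34. Of all measured holders, 45.3% were lower and 12.8% higher. The 55 list genes without it had 15 lower (27.3%) and 11 higher (20%), against 25.6% and 23.4% of all measured genes without it. The sequence was picked from these same libraries and the lists were chosen with results known, so these counts are not independent evidence.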

How the data were processed

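RNA of 2 RKO libraries, siHNRNPM and control, was sequenced, 1 library per group. The authors deposited raw counts, as whole numbers of reads for each gene symbol. HISAT2 2.0.4 and GRCh38 are named, with no role, per the submitters' processing notes. The counting tool, its annotation, its use of strand and its treatment of multi-mapped reads are not given in the sources used here, so overlapping genes may share reads.

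From the counts, TMM factors (edgeR 4.0.16, R 4.3.3) of 1.00 for siHNRNPM and 0.998 for control were computed, and genes reaching a CPM of 1 in either library were kept. Intervals were 95% Clopper-Pearson intervals of each gene's read split (scipy 1.17.1). They cover counting error alone and treat each read as independent, so PCR copies would make them too narrow even for that. Where both libraries had 3 or fewer reads no ratio is given. A count of 3 equals 0.229 CPM for siHNRNPM and 0.151 CPM for control. Exon lengths, positions and 3′ UTRs came from GENCODE 29. The 2-fold rule required a log2 ratio of at least 1 in size and an interval excluding a ratio of 1. All members are named, and from each further list up to 3 measured genes with the largest ratio whose interval excluded 1. GPC2, GXYLT2, KDELC1, HAS1, HAS3, NOTCH1 and NOTCH2 were named after their values were seen. The members and lists were chosen with earlier results of these data known. The procedure was tested before use on simulated counts with counting error only, in which the changed genes differed 3-fold or 6-fold. That test gave no check on variation between cultures or on calls of smaller differences. Alternatives covered other scalings (DESeq2 1.42.0 among them), a thinned control library, CPM filters and other fold limits.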

Additional observations from a re-analysis of the deposited data

How the results depend on the processing

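The 140 member ratios recomputed under total-count, DESeq2 and upper-quartile scaling and with the control library thinned to the siHNRNPM depth all stayed within their own intervals. Each scaling shifts all ratios by the same small amount, so only the thinned library could move single genes by different amounts. Upper-quartile scaling moved the median of all measured genes by 0.03 on the log2 scale, and the other 3 settings moved it by less. Calls that changed were those of CHST15 under DESeq2 factors, DSE under upper-quartile scaling, and FAM20B and PAPSS2 with the thinned library. With 1.5-fold required in place of 2-fold, 3 members were higher and 3 were lower. The share of all measured genes at that limit is not given, so these counts have no background beside them. The median of the core protein genes moved to 0.26 without a CPM filter, which adds SDC2 with 1 read in each library. Leaving out members with an alternate copy changed no value, since XYLT1 is the only one and was not measured. Setting a count of 0 to 1 changed no measured member. Searching any annotated 3′ UTR gave the same 12 measured holders. The minimum of 100 reads was chosen after seeing the data. No paired analysis was possible because each group has 1 library. Depth limits XXYLT1, B3GALT6, CHST12 and POGLUT1 most, and variation between cultures was not measured.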
